A study of Apis mellifera with 12 samples.

Results

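MicroRNAs (miRNAs) are short RNAs that guide Argonaute proteins to messenger RNAs, mainly through the seed, bases 2 to 8 of the mature sequence. miRNA numbers are given in order of description, so low numbers hold many miRNAs shared by insects, and the high-numbered bee entries were described later. The miRNAs described here are the bee miRNAs numbered 3700 or above, apart from miR-3739, miR-3776, miR-3741, miR-3796 and miR-3789. They are called late-numbered below and take up 85 of the 168 bee miRNA probes of the array. The other probes are 78 lower-numbered miRNAs and the 5 late-numbered ones left out. The 5 were left out with earlier results of these data known and include both miRNAs that passed the test between the groups, so the number of calls among the 85 was fixed in part by that choice. Whether the 85 occur in other species was not analysed here, and no function is assigned to them.

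The fat body is the insect tissue that stores nutrients and, in the honey bee (Apis mellifera), makes the yolk precursor vitellogenin. Newly emerged workers were injected with 2 µL of double-stranded RNA (dsRNA) at 10 µg/µL, either against vitellogenin (dsRNA-Vg) or, as the sham control, against green fluorescent protein (dsRNA-GFP), and all were taken as adults 15 days old that the labels call foragers. Each group held 6 pools of small RNA from 5 bees each, hybridised to 1 array per pool, and no uninjected bees were among the samples. The tissue was the abdominal carcass with its lining of fat body, so other tissues of the carcass may contribute, and no miRNA is taken here as a marker of fat body alone. The knockdown of vitellogenin itself was not analysed here. An array has 18 spots per miRNA and 628 empty spots, whose median intensity was 150.2 to 491.3 over the 12 arrays.

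8 late-numbered miRNAs were detected on 9 or more of the 12 arrays, and their mature sequences, as the array files give them, are shown because the levels and differences below turn on them. They are written 5′ to 3′ with the seed in capitals.
miR-3719: uACGGAUUgcgugacuuuucga
miR-3793: uGAGCGUGuuuucccuggacug
miR-3745: cGGGUGCCaccccccggcccgg
miR-3718a: uCCCCUGUccugucccgauag
miR-3747b: uGCGAGAUuucuuuucagucgug
miR-3751: gGGUGGUGguggaagucgggg
miR-3749: uGGAAUGGcccuuucaccuuccc
miR-3788: gUUCCGUUaccuccugucccuc
The 8 seeds all differ. Across the 85 members there were 83 distinct seeds, and 0 members shared a seed with a lower-numbered miRNA or with one of the 5 left out, whereas 17 of the 78 lower-numbered miRNAs shared a seed with another lower-numbered one.

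Both shared seeds lay within the group. Each joined 2 miRNAs, shown here with the shared seed in capitals.
miR-3749: uGGAAUGGcccuuucaccuuccc
miR-3794: uGGAAUGGaagaggacguuucc
miR-3748: cGUCCGUUucaaaguaaaacuu
miR-3753: uGUCCGUUucgggacucgaccg
miR-3749 was detected on 9 arrays, while miR-3794 was detected on 5 and had intensities of 16 to 26 in the deposited table of 1 intensity per miRNA and pool. miR-3748 was among the dimmest of all probes, at 5 to 15, and miR-3753 had 15 to 67, its highest value in dsRNA-GFP pool 1.

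miR-3718a and miR-3718b are complementary to each other over 18 bases without a mismatch, in capitals here, and their genes overlap in RefSeq's gene table (assembly Amel_HAv3.1).
miR-3718a: UCCCCUGUCCUGUCCCGAuag
miR-3718b: UCGGGACAGGACAGGGGAcaga
miR-3718a had a table intensity of 81 to 178 over the 12 pools and miR-3718b one of 11 to 28. The probe of miR-3718a gave the higher signal in every pool, although probes differ in how well they hybridise and these are not abundances.

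The late-numbered sequences varied more widely in base composition than the lower-numbered ones. Their share of G and C ran from 16.7% to 90.9% with an SD of 14.7, against 20.8% to 63.6% with an SD of 8.45 in the lower-numbered, at similar medians of 45.5% and 43.5%. The median length was 22 bases in both, with 21 to 25 bases in the late-numbered and 19 to 28 in the lower-numbered. U was the first base of 35 of the 85 (41.2%) and of 48 of the 78 (61.5%). The extremes include miR-3745 at 90.9% and miR-3779 at 81.8% of G and C.

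Most late-numbered miRNAs lay at or near the background of the array. Detection on an array required 50% or more of a miRNA's 18 spots to lie above the 95th percentile reached by the empty spots of the same array. By this measure 2 of 85 were detected on all 12 arrays (2.35%), miR-3719 and miR-3793, against 32 of 78 lower-numbered miRNAs (41.0%). miR-3745, miR-3718a and miR-3747b were each missed on 1 array, miR-3751 on 2, and miR-3749 and miR-3788 on 3. A further 5 were detected on 8 arrays, 42 on 6 or 7, and 30 on 5 or fewer. That none of the 85 was missed on every array follows from dsRNA-GFP pool 1, where all 168 probes counted as detected.

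The number detected differed widely between arrays, and with 1 array per pool the array and the pool cannot be told apart. It was 85, 76, 64, 2, 7 and 63 in dsRNA-GFP pools 1 to 6 and 49, 9, 80, 14, 56 and 6 in dsRNA-Vg pools 1 to 6. The 5 arrays with 63 or more were pools 1, 2, 3 and 6 of the dsRNA-GFP group and pool 3 of the dsRNA-Vg group. On these same 5 the median spot of the dimmer 84 miRNA probes was itself above the 95th percentile of the empty spots. Without these 5 arrays, a choice made after seeing the data, the range was 2 to 56, and 2 members were detected on every array left.

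A second measure, called strict here, set the threshold at the 95th percentile of the spots of the dimmer 84 miRNA probes. Of these probes 54 to 68 were themselves late-numbered. It was not stricter on every array. In dsRNA-GFP pool 4 and dsRNA-Vg pool 6 it counted 6 and 11 members, against 2 and 6 with the empty spots. On those arrays the median empty spot, at 318.6 and 356.4, lay above the median spot of the dimmer probes, at 291.4 and 343.2. By the strict measure 68 of the 85 were detected on 0 arrays, and 6 were detected on 6 or more (7.06%), against 40 of the 78 lower-numbered (51.3%). The 6 were miR-3718a on 11 arrays, miR-3719 and miR-3745 on 10, miR-3793 and miR-3747b on 9 and miR-3751 on 6. The other 11 members passed it on 1 to 5 arrays, led by miR-3732 on 5, of which 4 were dsRNA-Vg arrays. The strict counts were 0, 6, 1, 6, 5 and 7 in dsRNA-GFP pools 1 to 6 and 8, 9, 3, 11, 9 and 11 in dsRNA-Vg pools 1 to 6. The groups overlap, and the order of their means turns with the threshold: the mean was 4.17 ± 2.93 after dsRNA-GFP and 8.50 ± 2.95 after dsRNA-Vg (SD, n = 6 each), against 49.5 ± 35.8 and 35.7 ± 30.4 with the empty spots. The lower-numbered means took the same order by each threshold. They were 38.2 ± 4.88 after dsRNA-GFP and 41.7 ± 5.09 after dsRNA-Vg by the strict measure, and 61.7 ± 20.1 and 56.2 ± 15.9 with the empty spots. The turn was therefore not particular to the late-numbered miRNAs. No p is given for the members' counts, since the members were chosen with results known.

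**Figure D1:**
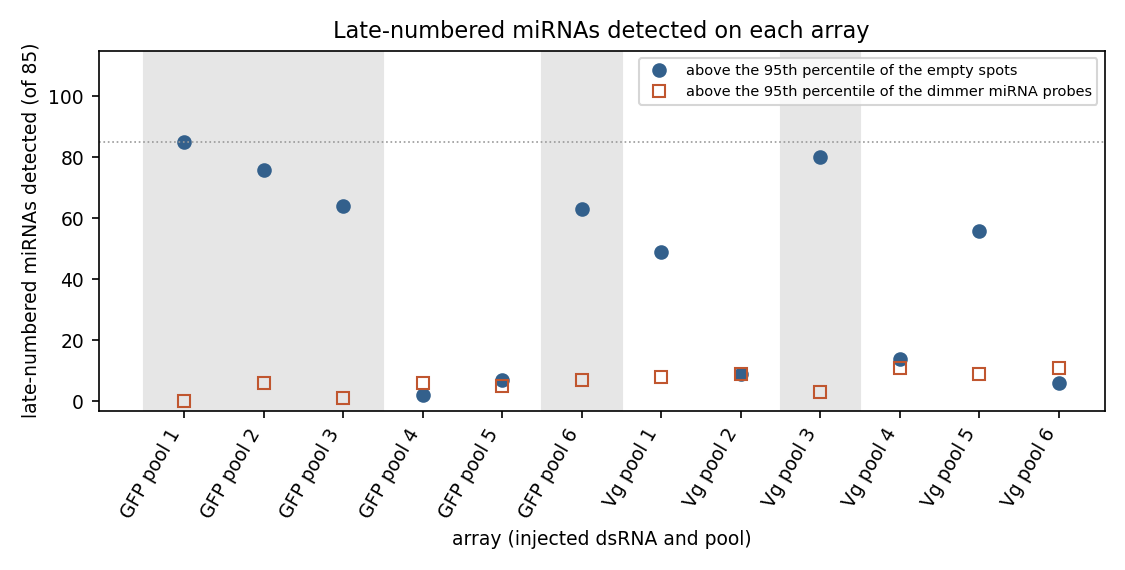
Number of late-numbered miRNAs detected on each array (y axis, of 85) against the empty spots (filled circles) and against the dimmer miRNA probes (open squares), for the 12 pools (x axis). Grey marks the 5 arrays whose dimmer probes lay above the 95th percentile of the empty spots, where 63 to 85 were counted against the empty spots but 0 to 7 against the dimmer probes.

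The late-numbered miRNAs gave a small part of the signal. Their share of the table's intensity sum was 1.51% on average (SD 0.186, n = 12 pools), from 1.30% to 2.02% per pool, although they make up most of the probes. The highest share, 2.02%, was in dsRNA-GFP pool 1. The lower-numbered miRNAs took 97.1% ± 0.962. The median late-numbered probe had an intensity of 16 to 24 per pool and the median lower-numbered probe one of 57.5 to 90, and the medians kept this order in each of the 12 pools. 4 late-numbered miRNAs had a mean above 100 and 68 a mean under 30, against 37 and 13 of the lower-numbered. The brightest, miR-3719, ranked 36 of 168, behind 32 lower-numbered miRNAs and 3 of the 5 left out. These are signals of different probes and describe the array, not molecule numbers.

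**Figure D2:**
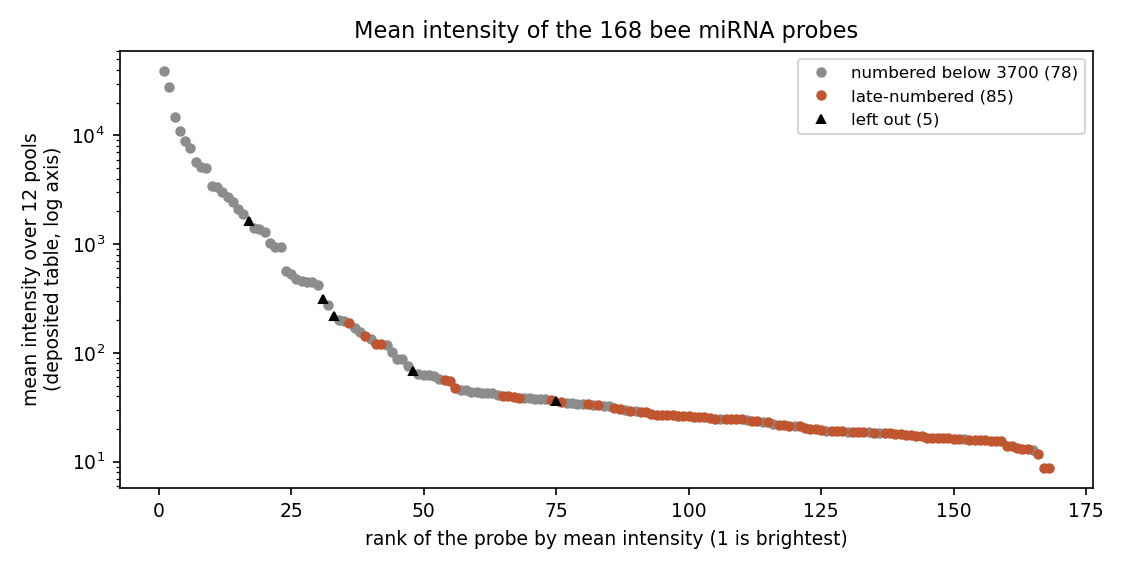
Mean intensity over 12 pools in the deposited table (y axis, log scale) of the 168 bee miRNA probes ranked from brightest to dimmest (x axis). The late-numbered miRNAs begin at rank 36 and fill most of the dim end, down to means of 8.83 for miR-3748 and 8.75 for miR-3728.

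miR-3719 had table intensities of 100 to 262 after dsRNA-GFP (median 197.5) and of 103 to 283 after dsRNA-Vg (median 199.5). In both groups 2 pools were near 100 and the other 4 at 172 or more, and the groups overlap almost fully. Its fold difference, dsRNA-Vg over dsRNA-GFP, was 1.03 in the deposited table (95% CI 0.631 to 1.68, limma, all 168 probes). Table folds are given without further scaling, and over all 168 probes the table's median log2 fold change was -0.11. In the scanner fit, explained below, its log2 fold change was 0.15 (SE 0.16, limma adjusted p = 0.686), and leaving out single pools moved it from 0.07 (without dsRNA-Vg pool 2) to 0.23 (without dsRNA-Vg pool 4).

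miR-3793 ran from 59 to 337 after dsRNA-GFP (median 131.5) and from 47 to 189 after dsRNA-Vg (median 146.5). It had the largest spread over the 12 pools of all tested members, an SD of 0.35 on the log2 scanner scale, and its lowest pools were number 3 in both groups. Its highest pool was dsRNA-GFP pool 2. Its table fold was 0.913 (95% CI 0.477 to 1.74). On the scanner scale the difference was -0.08 (log2, SE 0.20) with a limma adjusted p = 0.868, and it changed sign when dsRNA-GFP pool 2, dsRNA-GFP pool 6 or dsRNA-Vg pool 3 was left out, at 0.016, 0.0048 and 0.014.

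miR-3745, the sequence richest in G and C, ran from 74 to 167 after dsRNA-GFP (median 77) and from 85 to 269 after dsRNA-Vg (median 120). 5 of 6 dsRNA-GFP pools were at 89 or below and 5 of 6 dsRNA-Vg pools at 98 or above, and the groups overlap through dsRNA-GFP pool 6 at 167 and dsRNA-Vg pool 3 at 85. The table fold was 1.53 (95% CI 0.984 to 2.39, limma adjusted p = 0.344).

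miR-3718a had table intensities of 81 to 128 after dsRNA-GFP (median 98) and 105 to 178 after dsRNA-Vg (median 131.5). The groups overlap through dsRNA-GFP pools 4 and 6. Its table fold was 1.33 (95% CI 1.01 to 1.77, limma adjusted p = 0.344).

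miR-3747b and miR-3751 were dimmer. miR-3747b had 34 to 68 after dsRNA-GFP (median 51) and 32 to 83 after dsRNA-Vg (median 60). miR-3751 had 23 to 63 (median 54.5) and 32 to 99 (median 64). Its highest value, 99, was in dsRNA-Vg pool 4, where 1 of its spots read 799.2 at a spot median of 257.2. The part of that spot in the table value was not tested. Neither miRNA separated the groups, with table folds of 1.17 (95% CI 0.798 to 1.70) and 1.22 (95% CI 0.757 to 1.96).

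miR-3749 had 24 to 47 after dsRNA-GFP (median 37.5) and 33 to 90 after dsRNA-Vg (median 55). miR-3788 had 27 to 39 (median 30) and 32 to 71 (median 47). Both overlap, although for miR-3788 5 of 6 dsRNA-Vg pools were at or above the highest dsRNA-GFP pool. By the strict measure both were detected on 0 dsRNA-GFP arrays, and on 4 and 3 dsRNA-Vg arrays. The strict counts over all members were 0 to 7 on the 5 arrays whose dimmer probes lay above the 95th percentile of the empty spots. They were 5 to 11 on the 7 others. Most of those 5 were dsRNA-GFP arrays, so group and array background cannot be fully told apart in these counts. The remaining 2 of the 10 brightest, miR-3783 at 23 to 79 and miR-3732 at 24 to 65 over all pools, were detected on 7 and 8 arrays. miR-3783 had medians of 32.5 after dsRNA-GFP and 30.5 after dsRNA-Vg and a table fold of 0.956 (95% CI 0.586 to 1.56), and its highest pools were dsRNA-Vg pool 3 and dsRNA-GFP pools 1 and 3.

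**Figure D3:**
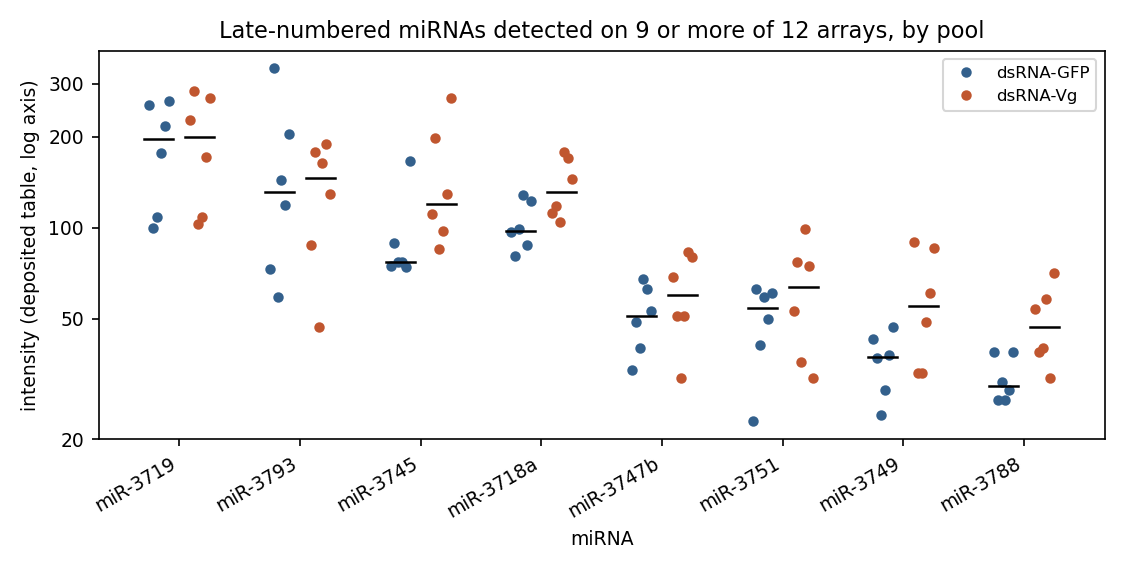
Intensity in the deposited table (y axis, log scale) of the 8 late-numbered miRNAs detected on 9 or more arrays (x axis). Each point is 1 pool, 6 after dsRNA-GFP and 6 after dsRNA-Vg, and bars are group medians; the groups overlap for all 8.

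Between the groups, 0 of the 55 late-numbered miRNAs tested passed the threshold. The test was limma on normalized log2 scanner intensities, with Benjamini-Hochberg adjustment over the 127 probes detected on at least 6 arrays and a threshold of 0.05. The other 30 members were detected on fewer arrays and did not enter it. Entry did not require a signal clear of background, and 42 of the 55 were detected on only 6 or 7 arrays. Without the 5 arrays whose dimmer probes lay above the 95th percentile of the empty spots, 5 members were detected on 6 or more of the 7 left. By the strict measure 6 members were detected on 6 or more arrays. Of all 127 probes 2 were called, or 1.57%, both of them among the 5 late-numbered miRNAs left out, so the count of 0 follows from the choice of members and nothing is read from it. At an unadjusted p under 0.05 there were 4 of the 55, all higher after dsRNA-Vg, against 18 of 127, or 14.2%, of which 12 were higher (9.45%) and 6 lower (4.72%). The members' share was 7.27%. The 127 probes include miR-3739, miR-3776 and miR-3796, which were left out with results known and each had such a p. Nothing is therefore read from the order of the shares. The groups failed to overlap for 0 members and for 3 of 127 probes, or 2.36%. miR-3739 and miR-3776 are among these probes, so this count too depends on the choice of members.

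The differences were small on this scale. The median log2 fold change of the 55 was -0.01, the same as over all 127 probes, with 25 positive and 30 negative values from -0.14 to 0.28. All their 95% intervals lay between -0.52 and 0.59. Most of the 55 lay at or near background, so these values largely describe probes with little signal. The offset of 50 added before the logarithm shrinks the differences of dim probes, and the deposited table gave a wider range. There the median SE of a member was 0.23 on the log2 scale against 0.05 in the scanner fit, and the 95% intervals of the folds of all 85 reached from 0.258 to 2.65. These are the outermost bounds over the 85 and not a limit for each miRNA.

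By p, miR-3788 came first: its log2 fold change was 0.18, with an SE of 0.05 and a limma adjusted p = 0.145 over 127 probes, and its table fold was 1.49 (95% CI 1.09 to 2.05). miR-3718a followed at 0.19 (SE 0.07, limma adjusted p = 0.218) and miR-3779 at 0.20 (SE 0.08, limma adjusted p = 0.254). None of the 3 passed the threshold, and their sequences are 59.1%, 61.9% and 81.8% G and C. miR-3779 is shown for that reason, with its seed in capitals.
miR-3779: gCCGGGCCugccgcucgacacg
Its intensities were 14 to 28 after dsRNA-GFP (median 14.5) and 20 to 64 after dsRNA-Vg (median 24.5), so it was near background in most pools, and it was detected on 3 arrays of each group.

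The next by p were miR-3732 at 0.14 (SE 0.06), miR-3727 at 0.10 (SE 0.05), miR-3749 at 0.18 (SE 0.09), miR-3717 at -0.14 (SE 0.07), miR-3745 at 0.28 (SE 0.14) and miR-3720 at -0.06 (SE 0.03). miR-3791, miR-3772 and miR-3759 closed the 12 lowest at 0.08, -0.08 and 0.10. None reached the threshold, with limma adjusted p from 0.33 to 0.412. The value of miR-3745, the highest among the members, fell to 0.16 without dsRNA-Vg pool 6. miR-3749 had a table fold of 1.53 (95% CI 1.00 to 2.33) and miR-3779 one of 1.72 (95% CI 1.12 to 2.65). In the fit of the deposited table over all 168 probes 0 of 85 members passed, where 2 of 168 or 1.19% did, and 10 members had an unadjusted p under 0.05, against 22 of 168 or 13.1%. Of these 10, 5 were higher and 5 lower after dsRNA-Vg, against 9 higher (5.36%) and 13 lower (7.74%) of the 168. In the table fit over only the 127 probes of the scanner test, 6 of the 55 members had such a p. Of those, 5 were higher and 1 lower, against 9 higher and 9 lower of the 127 (7.09% each). The members' median log2 fold change in the table was -0.13 beside -0.11 over all 168 probes. With all 168 fitted, the smallest limma adjusted p of a member was 0.197, for miR-3792 at a log2 fold change of -0.62.

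Across the 55 members tested, the log2 fold change tended to be higher where the mature sequence held more G and C, with a Spearman correlation of 0.45. Over the 67 lower-numbered miRNAs tested it was 0.40, so the tendency was not seen in the late-numbered alone, and in the deposited table the values were 0.38 over 85 and 0.46 over 78. The correlations are across miRNAs, which share the 12 arrays and are not independent replicates, and no test is attached. The table intensity also went with G and C among the late-numbered, at a Spearman correlation of 0.40, against 0.17 among the lower-numbered. The part of base composition in the differences between groups was not tested.

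**Figure D4:**
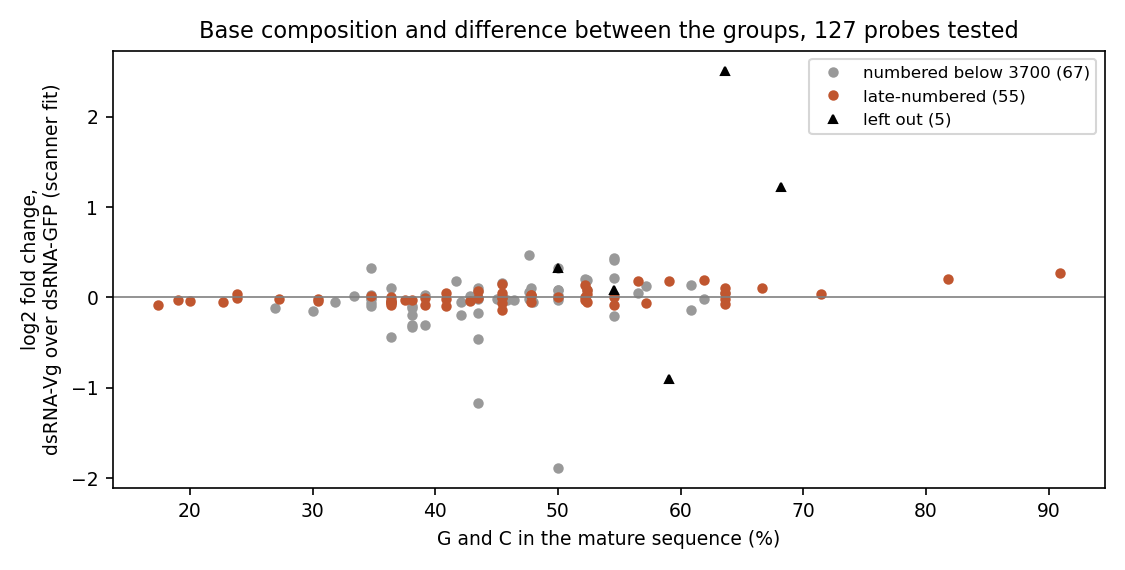
Log2 fold change, dsRNA-Vg over dsRNA-GFP, in the scanner fit (y axis) against the share of G and C in the mature sequence (x axis) for the 127 probes tested. The late-numbered miRNAs lie between -0.14 and 0.28, and miR-3779 and miR-3745 at the right end are both above 0.

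A set of late-numbered miRNAs was brighter in dsRNA-GFP pool 1 than in the other pools. miR-3717 had a table intensity of 156 there and 16 to 29 in the other 5 dsRNA-GFP pools. miR-3734 had 142 against 19 to 37, miR-3752 106 against 15 to 22, miR-3795 96 against 18 to 24, and miR-3757 91 against 15 to 32. miR-3787, miR-3801 and miR-3753 had 81, 80 and 67, against at most 31 in the other dsRNA-GFP pools and at most 41 in the dsRNA-Vg pools. In the scanner file a few spots of these probes stood far above the others. For miR-3717, 16 of the 18 spots read 529.5 to 601.3 and the other 2 read 914.4 and 2120. For miR-3752, miR-3757, miR-3787 and miR-3795, 17 of 18 spots read at most 636.7 and 1 spot read 1817 to 1936. How the authors averaged spots for their table is not known here, so the part of these spots in the table values was not tested.

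On that array 23 of the 85 members had at least 1 spot over 1.5 times the median of their own 18 spots. On the other 11 arrays 0 or 1 member did. The same count is not given for the other probes, so such spots are not shown to be particular to the late-numbered miRNAs. miR-3719 was among the 23, with a brightest spot of 1599 at a median of 612.8, and its table value of 255 in that pool lay below those of 262, 269 and 283 in pools without such a spot. Taking the median over the spots instead of the mean, chosen after these spots were seen, moved the log2 fold change of miR-3717 from -0.14 to -0.07, and leaving out dsRNA-GFP pool 1 moved it to -0.08. For miR-3753 the log2 fold change of -0.02 (SE 0.07) became 0.04 without that pool. miR-3734, miR-3752, miR-3757, miR-3787, miR-3795 and miR-3801 were picked after their values were seen.

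**Figure D5:**
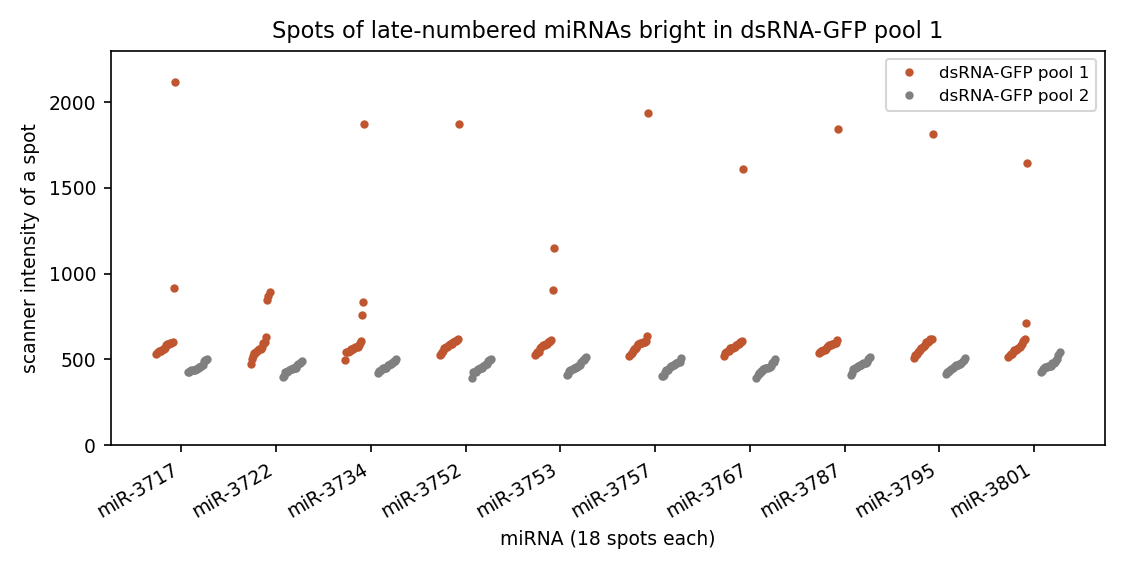
Scanner intensity of each of the 18 spots (y axis), sorted from low to high, for 10 late-numbered miRNAs whose table value in dsRNA-GFP pool 1 was at least 3 times the median of the other pools of its group (x axis). In pool 1 the lowest spot reads 475.8 and 1 to 3 spots of each miRNA stand over 1.5 times the probe's median, up to 2120, while the spots of pool 2 stay close together.

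Several late-numbered genes neighbour one another or a lower-numbered miRNA gene. Of the 85 names, 73 matched a miRNA gene of Amel_HAv3.1; the files name no build, so only gene order is used. The gene of miR-3730 lies between those of miR-277, which acts on amino acid breakdown in the fly, and miR-34, tied to ageing in the fly, with 0 genes between. miR-3730 had table intensities of 14 to 59, while miR-277 had 5166 to 10712 and miR-34 had 3932 to 6237. Its gene thus sits between genes whose probes were among the 10 brightest, while its own was near background.

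The genes of miR-3747a and miR-3747b are neighbours, as are those of miR-3751 and miR-3752, of miR-3719 and miR-3720, and of miR-3748 and miR-3749. miR-3747b had 32 to 83 and miR-3747a 9 to 20. miR-3720 had 15 to 23 beside miR-3719 at 100 to 283. In each of these 4 pairs 1 member was detected on at least 9 arrays and the other on 7 or fewer. miR-3747a, miR-3752 and miR-3730 were picked after their values were seen. miR-3791, at 16 to 50, lies next to miR-279b, at 23 to 84.

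miR-3747b also shares a run of 11 bases with miR-3743, in capitals here, at the same positions of both sequences, 8 to 18 counted from the 5′ end.
miR-3743: ucgugacUUUCUUUUCAGccccu
miR-3747b: ugcgagaUUUCUUUUCAGucgug
miR-3743 had 23 to 65 over the 12 pools and was detected on 8 arrays. The longest run shared with any lower-numbered miRNA was 12 bases, between miR-3735 and miR-87, which is bright at 3420 to 6369, and miR-3735 itself was detected on 8 arrays at a mean of 32.9. The share of a probe's signal that comes from a similar sequence was not tested.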

How the data were processed

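Small RNA from 12 fat body pools was labelled with Cy3 by a service provider, per the labels' protocols. The deposited scanner files hold the median intensity of each spot, per the file headers, with no local background. The authors' deposited table gives each miRNA 1 linear intensity per pool (correction, centring and scaling not given in the sources used here), and its log2 values were tested without further scaling. Fits used limma 3.58.1 in R 4.3.3: normexp over all 3968 spots (offset 50), removal of control spots, quantile normalization of log2 values, the mean over 18 spots, then group only in lmFit and eBayes, with Benjamini-Hochberg adjustment over the 127 probes tested. The fit was checked on simulated data with independent errors and planted differences larger than any among the members. That check does not cover differences as small as theirs. The number of arrays limits the precision. The p-values set the group difference against the spread between pools, which with 1 array per pool includes differences between arrays.

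The members and lists were chosen with earlier results of these data known. miRNAs named are the 12 members of lowest p, the 10 brightest, those detected on all arrays, the 5 of largest SD and those sharing a seed; every other member named, such as miR-3718b, miR-3728, miR-3735, miR-3743 and miR-3792, was picked after its values were seen. Same-numbered pools had correlations of their deviations from the group means from -0.33 to 0.70, which does not settle whether the numbers pair the pools. The labels name no pairing, so the main fit used none. Alternatives changed the background correction, scaling, detection filter, values, pool block and pools used; 3 more were chosen after seeing the data (no arrays of raised probe background, the unfiltered table, the median over spots).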

Additional observations from a re-analysis of the deposited data

Results flagged for a closer look

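In 12 of the 66 groups of 6 values checked, 1 pool stood far from the other 5 on the log2 scale by Dixon's 95% bound; chance gives about 1 in 20, or 3.3. Some of the 66 were chosen because they stood out, and over all 170 groups of the 85 members 17 passed that bound, where chance gives 8.5. In dsRNA-GFP pool 1 these were miR-3717 at 156, miR-3734 at 142, miR-3752 at 106, miR-3795 at 96, miR-3787 at 81, miR-3801 at 80, miR-3753 at 67 and miR-3743 at 48, where the nearest other pools were at 29, 37, 22, 24, 25, 31, 21 and 32. miR-3745 was high in dsRNA-GFP pool 6, at 167 against 89. miR-3747a was low in that pool, at 9 against 15. In the dsRNA-Vg group miR-3759 was high in pool 1, at 51 against 32, and miR-3752 was low in pool 6, at 10 against 15.

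Of 55 control reporters, whose spots entered the background correction but no comparison above, 2 stood apart between dsRNA-Vg and dsRNA-GFP without scaling of the arrays: a-PUC2PM by 1.37 on the log2 scale (limma adjusted p = 0.0383) and PUC2PM by 1.41 (limma adjusted p = 0.0412), both brighter on the dsRNA-Vg arrays. Their part in the members' values was not tested.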

How the results depend on the processing

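In every setting run, 0 late-numbered miRNAs were called, with 0 to 7 of them at an unadjusted p under 0.05 in the scanner fits and 6 or 10 in the deposited table; their lowest limma adjusted p ran from 0.0504 (loess surface of the empty spots subtracted) to 0.798. Calls over all probes were 1 with scaling to the median, with scaling to the mean of probes detected on all arrays, without normalization between arrays and over the probes detected on all arrays, 0 without the 5 arrays of raised probe background (which leaves 2 dsRNA-GFP pools), and 2 to 3 when single pools were left out. The members' median log2 fold change was -0.24 without normalization between arrays and -0.35 with scaling to the mean of probes detected on all arrays, where the median of all probes lay at -0.22 and -0.34; it was 0.11 over the 6 members tested by strict detection, -0.13 in the deposited table without a filter, and -0.02 to -0.00 when single pools were left out. With the pool number as a replicate block it was -0.01 and 3 probes were called, 0 of them members; 2 of the 6 pool numbers matched best with their own number.

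The mean number of members detected per array was 42.6 and fell to 6.33 against the dimmer probes and to 6.75 with the median of the empty spots plus 3 robust SDs; 0 were then detected on all arrays, and 0 with the 99th percentile. The members' share of the summed intensity was 6.93% in background-corrected scanner values and 6.84% with the median over spots, where the offset adds to every probe. The median member lay below the median lower-numbered miRNA by -1.83 on the log2 scale in the deposited table and by -0.32 in the normalized scanner values. The log2 fold changes of 4 named miRNAs near 0 changed sign. Without single pools miR-3751 ran from -0.00079 (dsRNA-GFP pool 1) to 0.082, miR-3793 from -0.20 to 0.016, miR-3783 from -0.043 to 0.0043 (above 0 without dsRNA-GFP pool 1 or 3) and miR-3753 from -0.043 to 0.040 (above 0 without dsRNA-GFP pool 1). miR-3783, at -0.01, was 0.0081 with scaling to the median, 0.011 without the raised-background arrays, 0.012 with the median over spots and 0.048 in the unfiltered table relative to the median of all probes. miR-3753, at -0.02, was 0.013, 0.058 and 0.0045 under the first 3 of these. The other named miRNAs kept their sign in the settings run, values being taken relative to the median of all probes where that moved by over 0.1. The causes of these changes were not tested. A slide or scan block was not run.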

Other observations

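Among the 167 other probes, the table values of miR-3793 were most like those of 3 lower-numbered miRNAs over the 12 pools: miR-375 (Pearson correlation 0.89), miR-79 (0.88) and bantam (0.86), a regulator of growth in the fly. On the normalized scanner scale the values were 0.75, 0.84 and 0.79. bantam too was lowest in pool 3 of both groups, at 2720 and 3218, and highest in dsRNA-GFP pool 2, at 9356. miR-3745 was most like miR-316 (0.78), miR-3779 (0.77) and miR-3732 (0.73), with scanner values of 0.46, 0.81 and 0.63, so the likeness to miR-316 was weaker on that scale. miR-3719 was most like miR-971 (0.77, and 0.80 on the scanner scale). These are the highest of 167 values each, the probes share arrays and scaling, and no test is attached.

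miR-3717 holds a run of 12 bases, gagagaaaaaga, that is complementary to miR-14, a miRNA of fat storage in the fly. The table value of miR-14 was also highest in dsRNA-GFP pool 1, at 477, the rest of that group having 36 to 148. On that array 2 spots of miR-3717 stood far above its others, as did spots of 23 of the 85 members, and miR-14 passed the strict detection on 1 of 12 arrays.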
